A study of Mus musculus with 12 samples.

Results

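Expression of 10 genes of the Notch pathway was followed by RNA-sequencing in tumourspheres of spindloid mouse mammary tumour cells. The genes were the receptors Notch1, Notch2 and Notch3, the ligands Jag1 and Jag2, the transcriptional repressors Hes1, Hey1, Hey2 and Heyl, and the feedback inhibitor Nrarp. They were taken by symbol from a count table of 55573 genes, and each symbol matched 1 row. The 3 lines used (A1005, A1129, A1471) go back to 3 different mammary tumours of the genotype MMTV-Metmt;Trp53fl/+;Cre, in which the mammary-directed MMTV promoter drives activated Met and 1 Trp53 allele can be deleted by Cre. The study states that the endogenous Met locus becomes amplified in this model, and the labels give no Met copy number for these lines. All lines were grown as spheres in serum-free medium that contained EGF, bFGF, insulin and heparin, and every group, DMSO included, therefore carried the same alleles and growth factors. Each line was treated for 24 h with the vehicle DMSO, the Met inhibitor Crizotinib, the FGF receptor inhibitor PD173074 or both together (Combo), the inhibitors at 1 µM each as the study states. This gave 12 libraries, with 3 lines per treatment (n = 3). The lines are the replicates, each being 1 culture line from 1 tumour.

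Notch receptors are membrane proteins that are activated by ligands of the Jagged and Delta-like families on neighbouring cells. Ligand binding lets proteases of the ADAM family and γ-secretase release the intracellular part of the receptor, which enters the nucleus, binds the DNA-binding protein Rbpj and switches on genes such as Hes1, Hey1 and Nrarp. Hes and Hey proteins repress transcription in turn, while the Nrarp protein binds the intracellular domain and dampens its activity. In the mammary gland the pathway takes part in the choice between luminal and basal cell fates.

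Total counts ranged from 13031492 to 17750476 per library, and no 2 of the 12 libraries were identical. Levels are given as CPM, counts brought to the same library size with TMM factors, and 3 counts, taken as the floor of detection, correspond to 0.167 to 0.226 CPM with Combo and 0.197 to 0.234 CPM with DMSO. Because the reads carried no molecular identifiers, floors and intervals cover counting error only. Of 7 mesenchymal markers, 6 lay at 21.8 CPM or more in all 12 libraries, with Vim at 1903 to 3204 CPM, and Cdh2 had at most 6 counts. Of 7 epithelial markers, Krt5 and Cldn7 had 0 counts in all libraries and Epcam, Cdh1 and Krt14 did not exceed 2.08 CPM, while the keratins Krt18 (4 to 49.4 CPM) and Krt8 (1.12 to 34 CPM) were found in every library. The summed level of 6 endothelial markers stayed between 0.0719 and 0.888 CPM. Of the 5 blood cell markers, Ptprc lay between 13.6 and 20.5 CPM in the 4 A1005 libraries and at no more than 0.138 CPM in the other 8, Cd68 lay between 4.21 and 24.4 CPM in all 12, and Adgre1, Itgam and Cd3e had at most 2 counts in any library. In these bulk samples a smaller number of cells of a type and less RNA per cell cannot be told apart.

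Notch2 was the most abundant of the 10 genes in the mean of the DMSO libraries when levels were divided by exon length. It reached 12.3 ± 3.67 CPM per kb of exon (SD, n = 3), followed by Jag2 at 7.09 ± 4.64, Hes1 at 6.92 ± 5.69 and Nrarp at 6.29 ± 4.07 on the same scale. Jag1 lay at 2.7 ± 1.78 and Notch1 at 2.53 ± 3.01 per kb, and the ranges of neighbours in this order overlapped from Notch2 down to Notch1. Notch3 (0.141 ± 0.129 per kb) and Hey1 (0.0893 ± 0.0777 per kb) were far lower. In the A1129 DMSO library Nrarp (8.81 per kb) lay above Notch2 (8.06 per kb). The place of Nrarp in this order is uncertain, since 2051 of its 2582 exon bases overlap a gene on the opposite strand. How strand was used in counting is not given. Hey2 had at most 1 count in any library, 4 in all, and Heyl had 0 counts in all 12, which allows no more than the floor of 3 counts in each. Both failed the filter on low counts, so 8 of the 10 genes were tested, and Hey1 passed through A1129 and A1471 only.

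The question of the treatment comparisons was how inhibition of Met, of the FGF receptors, or of both changed expression in the spheres. With Combo, Notch2 rose and Nrarp fell, each in all 3 lines and without overlap between the DMSO and Combo libraries. Jag2 was lower in all 3 lines by a smaller margin, and Hes1 was lower in A1129 and A1471 with little difference in A1005. Notch1 and Jag1 moved in opposite directions in different lines. The levels of the 8 tested genes are shown library by library.

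**Figure D1:**
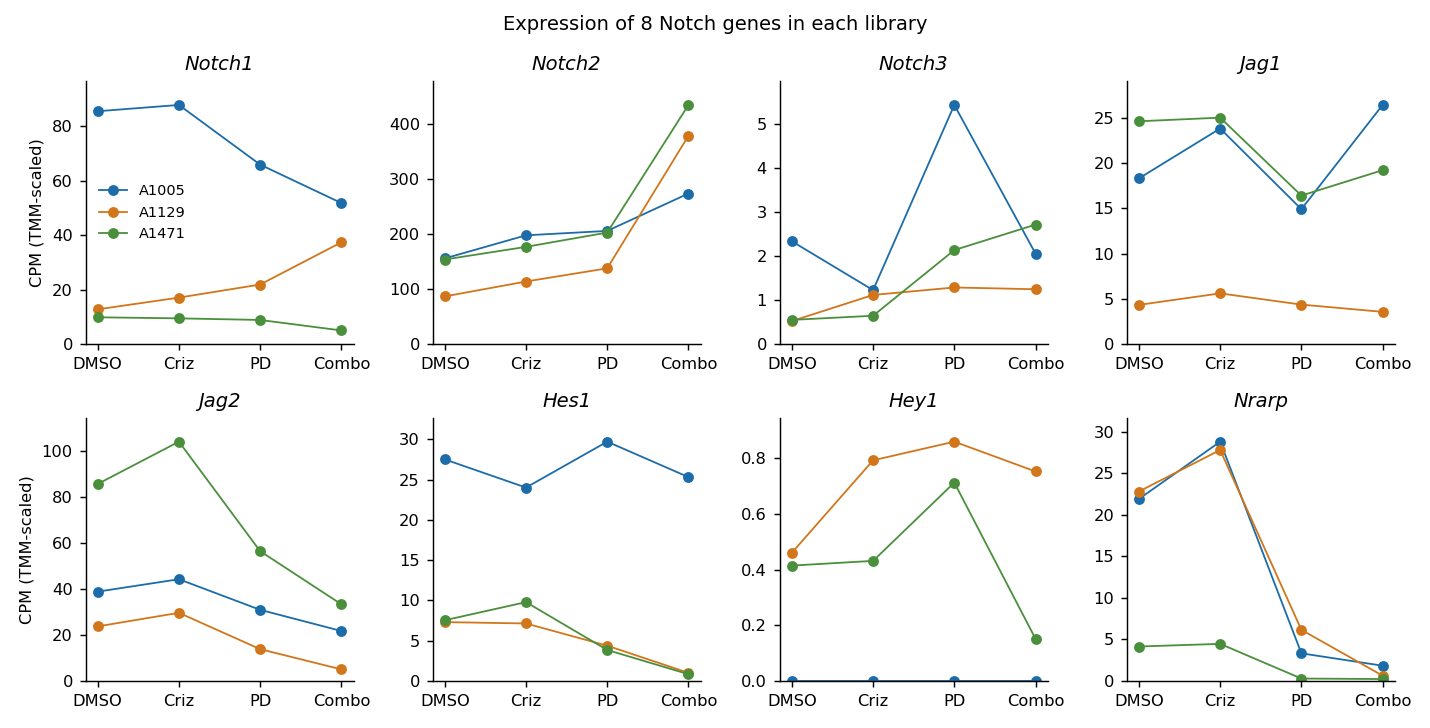
CPM (TMM-scaled, linear axis from 0) of the 8 tested Notch genes in the 12 libraries, by treatment (Criz, Crizotinib; PD, PD173074) and cell line. Each point is 1 library and lines join libraries of the same cell line. Notch2 reached 274, 379 and 435 CPM with Combo, above every DMSO library, and Nrarp lay at or below 1.83 CPM with Combo, under every DMSO library.

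Among the receptors, Notch2 (ENSMUSG00000027878, mm10 chr3:98013527-98150361, plus strand) had 156 CPM in A1005, 86.9 in A1129 and 154 in A1471 with DMSO. With Combo these libraries had 274, 379 and 435 CPM. The order of the lines thus changed, since A1129 was lowest with DMSO and A1005 was lowest with Combo. The mean rose from 133 ± 39.6 to 363 ± 81.7 CPM (SD over 3 lines), which in the edgeR quasi-likelihood test was a log2 fold change of 1.45 ± 0.30 (SE, adjusted p = 0.0127). With the line as a block, which sets each treated library against the libraries of its own line, it was 1.51 ± 0.21 (adjusted p = 2.5e-04). In 15 alternative fits the adjusted p ranged from 6.2e-11 to 0.188 and passed 0.05 in 12. The unpaired call was lost without A1129 (1.20, adjusted p = 0.0812) and without A1471 (1.43, adjusted p = 0.188), and kept without A1005 (adjusted p = 0.0315). With the block it held whichever line was left out.

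Notch1, the receptor best studied in mammary cells, differed in direction between lines. In A1005 it went from 85.5 CPM with DMSO to 51.8 with Combo, and in A1471 from 9.88 to 5.05 CPM. In A1129 it went the other way, from 12.8 to 37.4 CPM, a ratio of 2.93 (95% counting interval, 2.49 to 3.46). These opposite movements left -0.20 ± 1.17 on the log2 scale in edgeR (adjusted p = 0.942). The fitted value was 0.07 ± 0.40 with the block (edgeR, adjusted p = 0.9), over a range of 0.00581 to 1 in 15 alternatives. The blocked fit called it lower only when A1129 was left out (-0.81, adjusted p = 0.00581), and the unpaired sign turned without A1005 (0.91, adjusted p = 0.54).

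Notch3 stayed low throughout, at 0.526 to 2.34 CPM with DMSO and 1.25 to 2.72 CPM with Combo. With PD173074 alone it had 5.44 CPM in A1005, 1.29 in A1129 and 2.14 in A1471, against 2.34, 0.526 and 0.553 CPM with DMSO, so that each line was higher than its own control. The log2 fold change with PD173074 was 1.37 ± 0.72 (edgeR, adjusted p = 1) and with Combo 0.82 ± 0.71 (adjusted p = 0.507), neither past the threshold. With the block these were 1.39 ± 0.47 (adjusted p = 0.184) and 0.99 ± 0.49 (adjusted p = 0.112). The unpaired Combo value was 0.21 without A1471 and 1.88 without A1005, and the blocked fit called it higher only when A1005 was left out (1.82, edgeR, adjusted p = 0.0244). Only 8 to 30 counts per library underlie the DMSO values. Pericytes are known for Notch3, and the summed level of 6 pericyte and smooth muscle markers moved too, from 0.789 to 8.28 CPM with DMSO to between 5.33 and 99.4 CPM with Combo. Pdgfrb made up most of that sum, while Rgs5 had at most 3 counts and Myh11 at most 5 in any library, and the part of such cells in the result was not tested.

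The receptors were also compared as shares of their summed level per kb of exon, with Notch4 from the wider pathway included. Notch2 held 61.7% of this sum in A1005, 89.3% in A1129 and 94.8% in A1471 with DMSO, and 84.1%, 92.5% and 98.2% with Combo. Notch1 went from 25.6% to 12% of the sum in A1005, from 4.59% to 0.864% in A1471 and from 9.93% to 6.91% in A1129, although its own level was higher with Combo there. These shares were not tested. Notch4, known from endothelium, was found at 7.34 to 24.5 CPM in A1005 and at no more than 0.647 CPM in the other 2 lines. The summed level went from 23.5 to 30.2 per kb in A1005, from 9.03 to 38 in A1129 and from 15.1 to 41.1 in A1471.

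**Figure D2:**
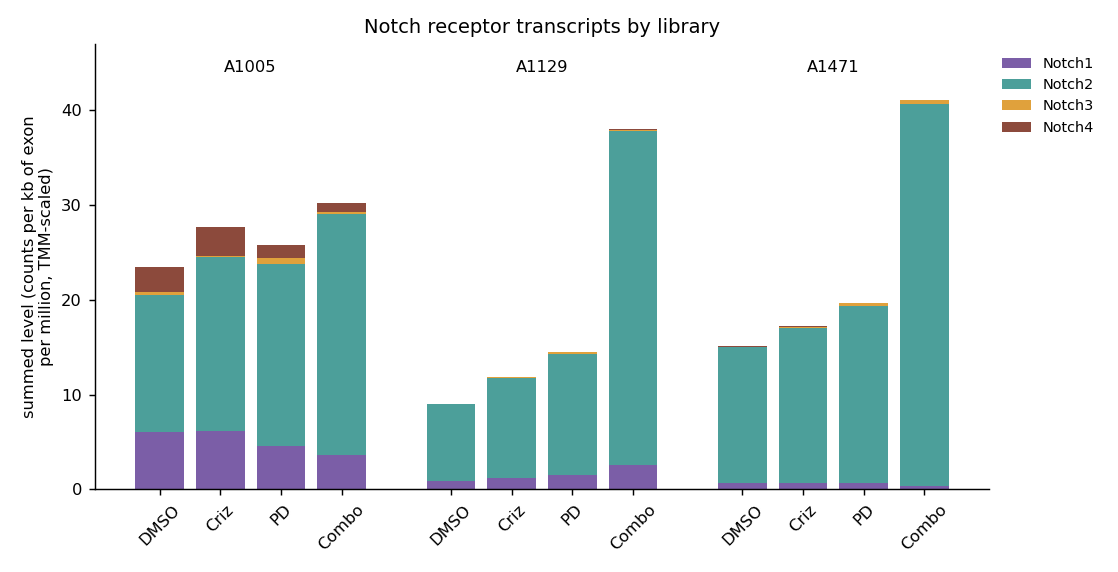
Stacked level of the 4 Notch receptor transcripts in each library, as TMM-scaled CPM per kb of exon, grouped by cell line and treatment (Criz, Crizotinib; PD, PD173074). Notch2 is the largest part of every bar, from 61.7% in A1005 with DMSO to 98.2% in A1471 with Combo, and Notch4 is visible in A1005 only.

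Of the ligands, Jag2 (ENSMUSG00000002799, mm10 chr12:112907819-112929776, minus strand) had 38.8, 23.7 and 85.6 CPM with DMSO in A1005, A1129 and A1471. With Combo it had 21.7, 5.01 and 33.3 CPM in the same order. Each line was therefore below its own control, while the highest Combo library lay above the lowest DMSO library. The edgeR value was -1.31 ± 0.78 on the log2 scale (adjusted p = 0.31) without the block and -1.40 ± 0.23 with it (adjusted p = 5.6e-04), over alternatives of 6.3e-08 to 0.482. All 3 blocked fits that left out a line kept the call, at values of -1.70 to -1.09.

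Jag1, the other Jagged ligand, had 18.3, 4.34 and 24.6 CPM with DMSO and 26.4, 3.57 and 19.2 CPM with Combo in A1005, A1129 and A1471. It was higher in A1005 and lower in the other 2 lines, and in A1129 the counting interval of the ratio (0.567 to 1.19) included no difference. In edgeR this came to 0.06 ± 0.86 on the log2 scale (adjusted p = 0.979), and to 0.00 ± 0.20 with the block (adjusted p = 0.99). Jag1 and Jag2 thus behaved differently in A1005, where Jag2 went to a ratio of 0.559 and Jag1 to a ratio of 1.44 of the DMSO level, a contrast within single libraries that was not tested.

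Of the Hes and Hey repressors, Hes1 (ENSMUSG00000022528, mm10 chr16:30064384-30067796, plus strand) was measured best. With DMSO it had 27.5 CPM in A1005, 7.3 in A1129 and 7.53 in A1471, and with Combo 25.3, 1 and 0.83 CPM. A1005 had a ratio to DMSO of 0.92 (95% counting interval, 0.799 to 1.06), A1129 of 0.137 (0.0759 to 0.233) and A1471 of 0.11 (0.0535 to 0.205). Hes1 was therefore far lower in A1129 and A1471, whereas the A1005 value stayed within counting error of its control. Over the 3 lines edgeR gave -0.64 ± 1.29 on the log2 scale (adjusted p = 0.809), and -1.41 ± 0.54 with the block (adjusted p = 0.0467, alternatives 3.0e-04 to 0.939). Without A1005 the unpaired value was -2.99 (adjusted p = 0.00786), and the blocked value was lost without A1129 or A1471, with adjusted p of up to 0.286. Ptprc, a blood cell marker, was also found at over 13 CPM in A1005 alone. Cd68 averaged 18.9 CPM there against 6.16 in A1129 and 6 in A1471, while Adgre1, Itgam and Cd3e had at most 2 counts in any library. The part of such cells in the difference of A1005 was not tested. Hes1 is among the genes that the study chose from these libraries, so its direction here is not independent evidence. The study also reports lower Hes1 with both inhibitors by qPCR. Its methods state that the qPCR of the combination covered fewer than 3 lines, and do not name them.

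Hey1 had 0 counts in the 4 A1005 libraries, 7 to 12 in A1129 and 2 to 10 in A1471. With so few reads no difference was detectable in any comparison with DMSO, the log2 fold change with Combo being 0.03 ± 1.71 (edgeR, adjusted p = 0.995). Its counting intervals for Combo against DMSO ran from 0.593 to 4.9 in A1129 and from 0.0359 to 2.04 in A1471.

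Nrarp (ENSMUSG00000078202, mm10 chr2:25180758-25183339, plus strand), the feedback inhibitor and direct Notch target, showed the largest log2 fold change of the 8 genes with Combo. With DMSO it had 21.9 CPM in A1005, 22.8 in A1129 and 4.14 in A1471. With Combo it had 1.83, 0.627 and 0.226 CPM, which rest on 33, 10 and 3 counts. All Combo libraries lay below all DMSO libraries, and A1471 was lowest with either. A1005 had a ratio of 0.0839 (95% counting interval, 0.0566 to 0.121), A1129 of 0.0275 (0.0131 to 0.0513) and A1471 of 0.0546 (0.011 to 0.167). The mean went from 16.3 ± 10.5 to 0.896 ± 0.837 CPM (SD over 3 lines), and edgeR gave -4.15 ± 1.23 on the log2 scale (adjusted p = 0.0494). This unpaired call lay at the threshold and was lost when any line was left out (adjusted p = 0.0607 to 0.334). With the block the value was -4.20 ± 0.41 (adjusted p = 2.8e-05, alternatives 3.3e-20 to 0.334) and held in all 3 blocked fits without a line. On the opposite strand Gm38287 overlaps 2051 of the 2582 exon bases of Nrarp. It had 0 to 8 counts per library, and how strand was used in counting is not given in the sources used here.

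**Figure D3:**
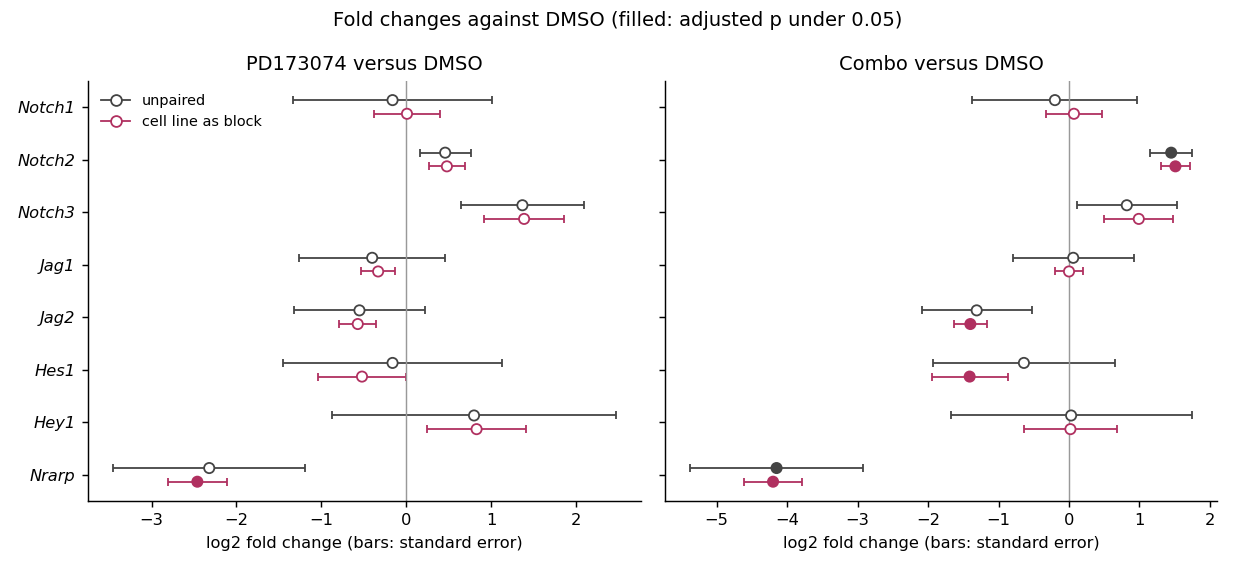
Log2 fold changes of the 8 tested genes for PD173074 and Combo against DMSO, with standard errors as bars, from edgeR without (grey) and with (red) the cell line as a block. Filled points have an adjusted p under 0.05. Standard errors were smaller with the block for every gene, and with Combo the filled points grew from Notch2 and Nrarp to Notch2, Nrarp, Jag2 and Hes1.

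Promoters are shown for Nrarp and Notch2, which were called with Combo, and for Hey2 as the window that held an Rbpj motif, because Notch signals reach DNA through Rbpj, whose core motif is TGGGAA, and because Hes and Hey proteins bind E-boxes such as CACGTG. RefSeq windows of 250 bases before and 50 after the start site (GRCm38.p6, the assembly behind mm10) were found for 7 of the 10 genes, namely Nrarp, Notch1, Notch2, Notch3, Jag1, Jag2 and Hey2. Both strands were searched. The core motif was found in 25.6% and the E-box in 7.15% of all 32851 windows of this length. Among the 7 windows, only that of Hey2 held the core motif, with 2 matches that begin 207 and 3 bases before the start site, and only that of Nrarp held the E-box, 108 bases before it. The sequences run 5′ to 3′ on the strand of the gene and stop before the first annotated exon, with matches in capitals (the second of Hey2 lies beyond the stretch shown, and TTCCCA is the core motif read on the other strand). A match is no evidence of binding, and none means only that the letters are missing from this window.
Nrarp promoter, chr2:25180508-25180757, plus strand: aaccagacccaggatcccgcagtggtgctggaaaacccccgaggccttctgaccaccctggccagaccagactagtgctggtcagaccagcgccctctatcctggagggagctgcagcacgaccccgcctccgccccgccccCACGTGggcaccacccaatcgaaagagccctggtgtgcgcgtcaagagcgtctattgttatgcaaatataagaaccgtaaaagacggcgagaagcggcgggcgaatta
Notch2 promoter, chr3:98013288-98013526, plus strand: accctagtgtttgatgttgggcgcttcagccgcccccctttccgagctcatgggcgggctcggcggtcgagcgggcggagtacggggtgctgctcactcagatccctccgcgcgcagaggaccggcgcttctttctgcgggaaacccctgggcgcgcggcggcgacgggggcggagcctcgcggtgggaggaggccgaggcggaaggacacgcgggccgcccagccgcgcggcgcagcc
Hey2 promoter, chr10:30842802-30843033, minus strand: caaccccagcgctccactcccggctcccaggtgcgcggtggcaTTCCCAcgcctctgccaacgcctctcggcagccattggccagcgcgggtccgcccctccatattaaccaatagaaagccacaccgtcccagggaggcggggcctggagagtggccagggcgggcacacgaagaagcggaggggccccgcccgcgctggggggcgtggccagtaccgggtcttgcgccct

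Counted together, 1 of the 8 tested genes rose (Notch2) and 1 fell (Nrarp) with Combo against DMSO in the unpaired edgeR fit. Of all 13836 genes tested, 14.4% were called, 6.10% higher and 8.28% lower, so the count by itself sets the Notch genes apart in neither direction. Their median log2 fold change was -0.09, against 0.02 over all genes. With the block, 4 of 8 were called, Notch2 higher and Nrarp, Jag2 and Hes1 lower, beside 54.8% of all genes. The DMSO and Combo groups did not overlap for 2 of 8, beside 29.9% of all genes. By sign alone, 4 of 8 (Hes1, Notch2, Jag2 and Nrarp) went the same way in all 3 lines, beside 66.1%. For Hes1 the A1005 difference lay within counting error.

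With Crizotinib alone none of the 8 genes was called, as was none of the 13836 genes (0%) in the edgeR fit with or without the block. DESeq2 and limma-voom also called 0 of the 8, and none passed an unadjusted p of 0.05 in these fits. Log2 fold changes ranged from -0.18 to 0.46. Notch2, Jag1, Jag2 and Nrarp were slightly higher in all 3 lines, 4 of 8 with 1 direction beside 35.6% of all genes, for instance Nrarp at 28.8, 27.8 and 4.46 CPM with Crizotinib against 21.9, 22.8 and 4.14 CPM with DMSO in A1005, A1129 and A1471.

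With PD173074 alone the unpaired edgeR fit called none of the 8 genes (0% of all genes), none at an unadjusted p under 0.05, and DESeq2 and limma-voom called 0 as well. Nrarp nevertheless had 3.32 CPM in A1005, 6.15 in A1129 and 0.285 in A1471, each below its own DMSO library. The ratios were 0.152 (95% counting interval, 0.112 to 0.204), 0.27 (0.211 to 0.343) and 0.0687 (0.0181 to 0.185). Without the block edgeR gave -2.32 ± 1.13 on the log2 scale (adjusted p = 1). With the block Nrarp fell by 2.46 ± 0.35 on the log2 scale (adjusted p = 0.0104, alternatives 5.5e-08 to 1), the only 1 of 8 called, beside 2.14% of all genes. This blocked call was kept without A1129 (adjusted p = 0.0155) and lost without A1005 (adjusted p = 0.0602) and without A1471 (adjusted p = 0.154). Notch2 and Notch3 were higher and Jag2 and Nrarp lower in all 3 lines, that is 4 of 8 with 1 direction throughout, beside 47.3% of all genes.

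**Figure D4:**
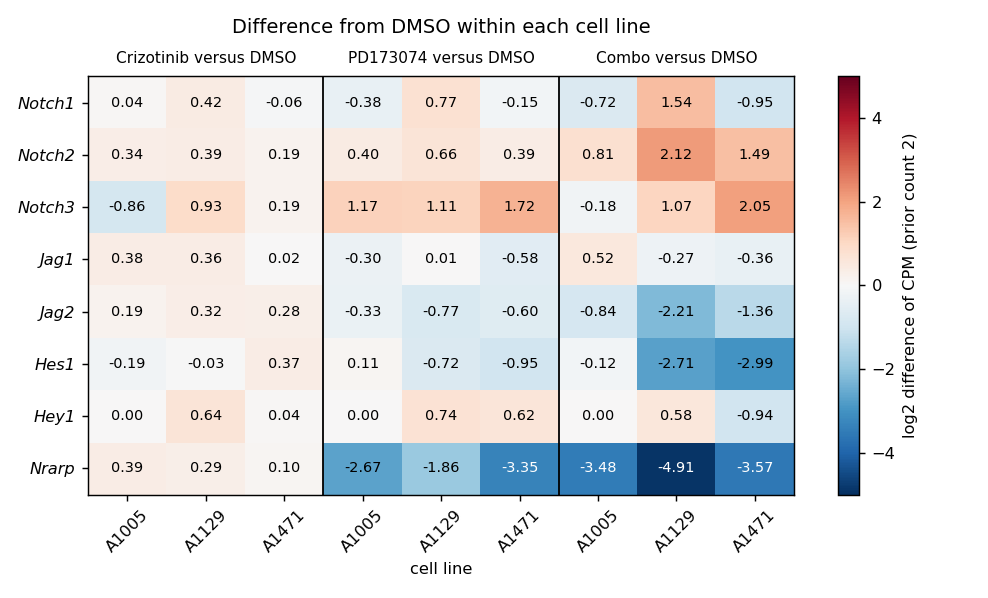
Log2 difference of CPM (prior count 2) from the DMSO library of the same cell line for the 8 tested genes, with red higher and blue lower than DMSO. Nrarp is negative in all 3 lines with PD173074 (-1.86 to -3.35) and Combo (-3.48 to -4.91), while Notch1 with Combo is positive in A1129 (1.54) and negative in A1005 (-0.72) and A1471 (-0.95).

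Combo was also set against each inhibitor. These comparisons share the Combo libraries with the one above, so their values are given side by side and not as further evidence. Against Crizotinib, Notch2 rose by 1.16 ± 0.30 (edgeR, adjusted p = 0.0331) and Nrarp fell by 4.48 ± 1.25 on the log2 scale (adjusted p = 0.042), that is 2 of 8 beside 13.2% of all genes. Both calls ended without A1129 or A1471, and that of Nrarp also without A1005 (adjusted p up to 0.302 and 0.291). With the block 4 of 8 were called, beside 53.4%, since Jag2 at -1.67 ± 0.23 (adjusted p = 2.1e-04) and Hes1 at -1.50 ± 0.54 (adjusted p = 0.0389) joined them. The blocked calls of Notch2, Jag2 and Nrarp held whichever line was left out, and that of Hes1 was lost without A1129 (-1.08, edgeR, adjusted p = 0.232) and without A1471 (-0.86, adjusted p = 0.282).

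Against PD173074 none of the 8 was called in the unpaired edgeR fit, beside 4.77% of all genes. Notch2 alone had an unadjusted p under 0.05, and it was the only gene of the 8 called by DESeq2, while limma-voom called 0. With the block 3 of 8 were called, beside 39.8% of all genes, with Notch2 at 1.04 ± 0.21 (adjusted p = 0.00383), Jag2 at -0.82 ± 0.22 (adjusted p = 0.0159) and Nrarp at -1.74 ± 0.43 (adjusted p = 0.0107). The further difference of Nrarp was uneven between lines, at a ratio of 0.552 in A1005 and 0.102 in A1129, and in A1471 only 3 and 4 counts remained, which gives a counting interval from 0.116 to 4.7. The blocked call of Nrarp ended without A1129 (adjusted p = 0.152), and those of Notch2 (0.07) and Jag2 (0.111) ended without A1471.

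Whether both inhibitors together differed from the sum of their separate differences was tested as a departure from additivity on the log2 scale. In the unpaired edgeR fit 0 of 8 genes departed, beside 0.918% of all genes, with 0 of 8 at an unadjusted p under 0.05 and 0 called by DESeq2 or limma-voom. With the block, Nrarp departed by -2.01 ± 0.53 (adjusted p = 0.031) and Jag2 by -1.09 ± 0.31 (adjusted p = 0.0396), 2 of 8 beside 16.2% of all genes. By line, Nrarp departed by -1.21 (A1005), -3.33 (A1129) and -0.32 (A1471), where the PD173074 library was already near the floor. The Jag2 departure was -0.70, -1.76 and -1.04 in the same order. Hes1 departed by -1.95 in A1129 and -2.42 in A1471 against -0.04 in A1005, and was not called (blocked adjusted p = 0.382). Blocked fits without a line made 4 calls without A1005 and 0 without A1129 or A1471.

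The 3 lines differed from each other in most of these genes, a comparison of 3 cultures in a fit with line and treatment as terms. Hey1 is left out of these counts, because it entered the test only through its reads in A1129 and A1471. Against A1005, A1129 was lower in Hes1, Notch1, Notch3, Jag1 and Jag2, 5 of 7 beside 57.8% of all genes. A1471 was lower in Hes1, Notch1 and Nrarp and higher in Jag2, 4 of 7 beside 57.7%. A1471 against A1129 gave 5 of 7, beside 45.9%, with Jag1, Jag2 and Notch2 higher and Notch1 and Nrarp lower. Line differences were thus frequent over all genes too, and nothing particular to the Notch genes is read from these counts.

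Hes1 averaged 26.6 ± 2.48 CPM over the 4 libraries of A1005, 4.95 ± 2.96 in A1129 and 5.49 ± 3.96 in A1471 (SD over treatments). The log2 difference from A1005 was -2.73 ± 0.46 in A1129 (edgeR, adjusted p = 5.4e-04) and -2.61 ± 0.47 in A1471 (adjusted p = 8.0e-04). These values include the Combo libraries, in which Hes1 was far lower in A1129 and A1471 only. In 6 alternative fits they ran from -2.89 to -1.85 and from -2.78 to -1.58, and all 6 called both. Notch1 was ordered A1005, A1129, A1471 at 72.7 ± 17.1, 22.3 ± 10.7 and 8.33 ± 2.22 CPM, and all 3 differences passed the test. That of A1471 from A1129 was -1.41 ± 0.36 on the log2 scale and ran from -1.40 to -0.60 in 6 alternatives, each a call. It too includes the Combo libraries, in which Notch1 was above its DMSO level in A1129 only. A1471 and A1129 had 9.88 and 12.8 CPM with DMSO, and 5.05 and 37.4 CPM with Combo. Jag1 was low in A1129 only, at 4.47 ± 0.845 CPM against 20.9 ± 5.2 in A1005 and 21.3 ± 4.19 in A1471, and the last 2 did not differ beyond their spread (log2 difference 0.03 ± 0.17, edgeR, adjusted p = 0.888). Jag2 was highest in A1471 at 69.8 ± 31.3 CPM. Nrarp was low in A1471 only, with a log2 difference of -2.70 ± 0.33 from A1005 (edgeR, adjusted p = 7.1e-05) and -2.73 ± 0.33 from A1129 (adjusted p = 1.2e-04). Hey1 summed to 43 counts in A1129, 24 in A1471 and 0 in A1005. Pooled over the 4 libraries of a line it lay at 0.713 CPM in A1129 and 0.431 CPM in A1471. In A1005, 3 counts over the 4 libraries together would be 0.0484 CPM, which is lower than the floor of a single library. These pooled values carry no counting interval, so no bound on the fold difference is given.

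The rest of the pathway was counted over 50 further genes, grouped by role, of which 42 passed the filter on low counts. With Combo against DMSO 7 of them rose and 1 fell in the unpaired edgeR fit, and 34 did not pass, against backgrounds of 6.10% higher and 8.28% lower over all genes. With the block 27 rose and 3 fell, and 12 did not pass, beside 28.6% higher and 26.2% lower. Of the 8 unpaired calls 6 remained without A1005, 1 (Dlk2) without A1129 and 0 without A1471 (adjusted p of 0.0845 to 0.295), whereas with the block all 8 remained whichever line was left out. The median log2 fold change of the 42 was 0.41, against 0.02 over all genes tested.

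The fall was that of Rbpj, the DNA-binding partner of the released receptor domain. It had 104, 156 and 216 CPM with DMSO and 51.3, 47.1 and 70.7 CPM with Combo in A1005, A1129 and A1471. All Combo libraries were below all DMSO libraries, at -1.49 ± 0.34 on the log2 scale in edgeR (adjusted p = 0.019), and -1.44 ± 0.14 with the block (adjusted p = 2.8e-05, alternatives 8.8e-19 to 0.239). In the same nuclear group of 11 tested genes the corepressor gene Tle3 rose by 0.54 ± 0.11 (adjusted p = 0.0115).

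Hes6, a Hes family member that is known to oppose Hes1, was the only 1 of 5 other Hes genes with enough counts. It had 16.7, 19.5 and 19 CPM with DMSO and 34.9, 35.8 and 51.1 CPM with Combo in A1005, A1129 and A1471, and was higher in A1005 also, where Hes1 differed little. The rise was 1.14 ± 0.20 on the log2 scale in edgeR (adjusted p = 0.00492).

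Among 12 tested genes of trafficking and turnover, Dtx4 (a Deltex ubiquitin ligase) rose by 2.88 ± 0.53 on the log2 scale (edgeR, adjusted p = 0.00682), from 49.3, 43.3 and 85.4 CPM to 168, 650 and 496 CPM in A1005, A1129 and A1471. Neurl1a, a ubiquitin ligase that acts on ligands, rose by 2.84 ± 0.58 (adjusted p = 0.0114). Among the 3 tested genes listed as ligands outside the Jagged family, Dlk2, which encodes a Delta-like protein, rose by 2.65 ± 0.36 (adjusted p = 0.00158). Whether its protein activates Notch receptors was not tested. Both Dtx4 and Dlk2 are among the marker genes that the study shows for these libraries, so their direction is not independent evidence. Of 10 processing genes, the γ-secretase subunit genes Aph1b and Aph1c rose by 2.68 ± 0.75 (adjusted p = 0.04) and 2.67 ± 0.62 (adjusted p = 0.0201). They are near-identical paralogs at no more than 5.64 CPM, and how reads that match both were counted is not given in the sources used here. None of the 4 tested glycosylation genes passed in the unpaired edgeR fit, 0 having an unadjusted p under 0.05, and 4 did with the block, beside 54.8% of all genes.

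Dll4, a Delta-like ligand, was chosen here after its values were seen. It had 25 CPM in A1129 and 8.36 in A1471 with DMSO and 1.75 and 0.453 CPM with Combo, while A1005 had no more than 0.156 CPM in any library. The unpaired edgeR fit gave -3.91 ± 2.28 on the log2 scale (adjusted p = 0.297) and the blocked fit -4.00 ± 0.44 (adjusted p = 6.3e-05). In the PD173074 comparison 0 of the 42 genes were called without the block, 3 having an unadjusted p under 0.05, and with it 2 rose (Dlk2 and Dtx3l), beside 2.14% of all genes. With Crizotinib 0 were called by either edgeR fit, and 0 had an unadjusted p under 0.05.

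**Figure D5:**
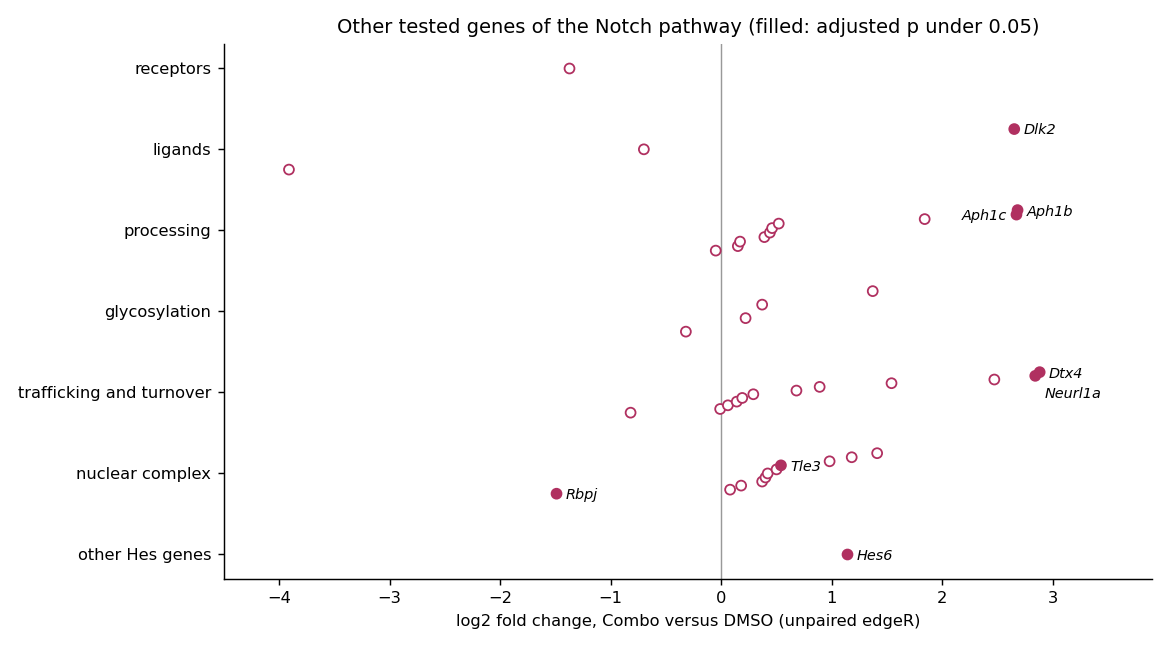
Log2 fold change with Combo against DMSO (unpaired edgeR fit) of the 42 tested genes of the wider Notch pathway, 1 point per gene, by role. Filled and named points have an adjusted p under 0.05: 7 lie to the right of 0 and only Rbpj, at -1.49, to the left.

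Genes with the most similar pattern were sought among about 9224 genes of sufficient level by Pearson's correlation of log2 CPM over the 12 libraries after each line was centred on its own mean. These correlations are descriptions, since the libraries share lines and treatments and very many genes follow Combo. For Hes1 they were Jun (r = 0.985), Manf (0.983) and Pitpnm1 (0.981). For Nrarp they were Ppp1r12c (0.987), Gramd4 (0.986) and Ubald2 (0.983), for Jag1 Atp5l (0.927), Nprl3 (0.927) and Castor2 (0.919), and for the sparse Hey1 Cnot4 (0.87), Ppp4r3b (0.868) and Naa30 (0.867).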

How the data were processed

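The authors deposited raw counts of reads for each Ensembl gene, made from total RNA of 12 tumoursphere libraries sequenced on a NextSeq500. The submitters' processing notes name bcl2fastq, STAR, HTSeq and the build mm10, and versions, strand setting and annotation release are not given in the sources used here. Gene coordinates and exon lengths came from GENCODE M21, promoter sequences from RefSeq (GRCm38.p6).

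Genes were filtered (filterByExpr, minimum count 10, total 15), scaled with TMM and put through edgeR 4.0.16 (R 4.3.3, quasi-likelihood test) in 1 unpaired fit of treatment, as the methods of the study state, with Benjamini-Hochberg adjustment over 13836 genes and a threshold of 0.05. Lines were compared with treatment as a term. Libraries of the same line are paired through the cell line in the labels, and their deviations from the group means correlated at 0.766 to 0.962 (18 pairs) against -0.663 to -0.0472 between lines (36 pairs), so the line as a block was fitted too. Alternatives were DESeq2 1.42.0, limma-voom (limma 3.58.1), other scalings and filters, and leaving out each line. Log2 CPM used a prior count of 2. Ratios within a line carry 95% exact binomial intervals. Scripts were tested on simulated data.

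Total counts were 13031492 to 17750476 per library. All 10 genes were followed singly with Combo and PD173074 against DMSO. The rule for naming pathway genes was a call with Combo in the unpaired fit, with Rbpj named in any case. Dll4, Notch4 and Dtx3l were named outside it, after their values were seen. Similar genes were named by the 3 highest correlations among genes averaging at least 3 on the log2 CPM scale. The genes and lists, including markers of epithelial, mesenchymal, endothelial, pericyte and blood cells, were chosen with earlier results of these data known. Where labels do not say more, p-values measure the spread between these libraries.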

Additional observations from a re-analysis of the deposited data

Results flagged for a closer look

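Both genes with a departure from additivity in the blocked edgeR fit are results in which the PD173074 difference changed with Crizotinib present. For Nrarp it was lower by -2.01 ± 0.53 on the log2 scale (adjusted p = 0.031) and for Jag2 by -1.09 ± 0.31 (adjusted p = 0.0396), and without the block neither passed (adjusted p = 0.82 and 0.955). Of the 3 blocked edgeR fits that left out a line, 1 called each gene (adjusted p up to 0.205 for Nrarp and 0.23 for Jag2). Notch1 went in opposite directions between lines with Combo by more than counting error, with log2 differences of 1.54 in A1129, -0.72 in A1005 and -0.95 in A1471. Jag1 did so at 0.52 in A1005 and -0.36 in A1471. The differences between lines in Notch1 and Jag1 were not tested, because each line had 1 library per treatment.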

How the results depend on the processing

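With Combo against DMSO 2 of the 8 genes were called. The number was 4 with the replicate block (the cell line, in edgeR or DESeq2), 5 in the blocked fit without A1005 and 4 without A1129. It was 1 with limma-voom, DESeq2 size factors, total counts alone, no filter or at least 10 counts in every library, 0 with only the groups compared, and 0 to 2 in unpaired fits without 1 line. Against Crizotinib the 2 calls became 4 with the block in either tool and in blocked fits without A1005 or A1129, 1 with limma-voom, no filter or at least 10 counts, 0 with only the groups compared and 0 to 2 without 1 line. Against PD173074 0 became 3 with the block in either tool, 1 with DESeq2, 4, 3 and 1 in blocked fits without A1005, A1129 and A1471, and 0 to 1 in unpaired fits without 1 line. PD173074 against DMSO went from 0 to 1 with the block in either tool and in the blocked fit without A1129. The departure from additivity went from 0 to 2 with the block in either tool and 4 in the blocked fit without A1005. A1471 against A1005 went from 5 calls, Hey1 included, to 3 with at least 10 counts in every library. That filter left 5 of the 10 genes in the test and took out Nrarp and Hey1. In this comparison and with Combo against DMSO or Crizotinib, the calls missing under it are of these untested genes. Every other call was kept. Some signs turned. Hey1 with Combo turned from 0.03 to -0.15 with the DESeq2 block, -0.53 with limma-voom and -0.02 without a filter. Notch1 with Combo turned from -0.20 to 0.07 with the block in either tool, 0.08 with limma-voom, -0.75 to 0.91 without 1 line (positive without A1005), and 0.52 and 0.45 in blocked fits without A1005 and A1471. Notch1 with PD173074 turned from -0.16 to 0.01 and 0.00 with the block in edgeR and DESeq2, 0.17 with limma-voom, -0.34 to 0.45 without 1 line (positive without A1005), and 0.29 and 0.12 in blocked fits without A1005 and A1471. Jag1 with Combo turned from 0.06 to -0.01 with limma-voom, -0.33 to 0.40 without 1 line (negative without A1005) and -0.31 in the blocked fit without A1005. Apart from the genes taken out by that filter, the cause of these changes was not tested. Of 9 counts of called genes, 71 values under an alternative stayed within 1.5 times the main count, 21 rose and 15 fell. The 3 lines and the few reads of Hey1, Hey2, Notch3 and, with Combo, Nrarp limit the precision.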

Other observations

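The markers fixed for other cell types were followed with Combo against DMSO in the unpaired edgeR fit. Of 7 mesenchymal markers 6 were tested, and Twist1, a transcription factor of epithelial-mesenchymal transition that the study picked from these libraries, fell by 1.09 ± 0.15 on the log2 scale (adjusted p = 0.00156), the only call. With the block 3 of the 6 were called, Twist1 lower and the matrix gene Sparc (2.02 ± 0.33, adjusted p = 5.5e-04) and the transcription factor gene Zeb2 (0.51 ± 0.14, adjusted p = 0.0133) higher, beside 54.8% of all genes. Neither tested epithelial marker passed (Krt8 0.86 ± 1.34, adjusted p = 0.739, and Krt18 -0.96 ± 0.83, adjusted p = 0.5), and with the block Krt18 was called lower (adjusted p = 2.2e-04). Pdgfrb, a receptor of mesenchymal and perivascular cells, had 6.25, 0.46 and 5.25 CPM with DMSO and 37.1, 4.51 and 98.3 CPM with Combo in A1005, A1129 and A1471. On the log2 scale edgeR gave 3.55 ± 1.36 (adjusted p = 0.114) and, with the block, 3.32 ± 0.37 (adjusted p = 6.1e-05). Of the blood cell markers Cd68 and Ptprc were tested and not called, and with the block Cd68 was called at 0.82 ± 0.20 (adjusted p = 0.00603). None of the 6 endothelial markers had enough counts for a test.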
